A study of Mus musculus with 11 samples.

Results

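The 32 genes described here encode enzymes, carriers and import factors of fatty acid oxidation in mitochondria and peroxisomes. They were chosen by name from a list of this pathway, with earlier results of these data known. All 32 were found among the 12932 genes of the deposited table of normalized RNA-seq values. By location, 23 of them act in mitochondria, 7 in peroxisomes and 2 (*Crat* and *Eci2*) in both. RNA came from alveolar macrophages (AMs), the macrophages of the airspace, sorted from 9-week-old male and female C57BL/6J mice at 40000 cells per library. The groups were mature AMs (mAMs, CD11b- SiglecF+) of Rxrab fl/fl mice without Cre (control mAMs, 4 libraries), mAMs of Cd11cCre+ Rxrab fl/fl mice (RXR-deficient mAMs, 4 libraries) and immature AMs (ImmAMs, CD11b+ SiglecF+) of Cd11cCre+ Rxrab fl/fl mice (RXR-deficient ImmAMs, 3 libraries). Every group carried the floxed *Rxra* and *Rxrb* alleles, and the labels give no treatment. The Cre is driven by *Cd11c*, which is active in AMs and also in other CD11c+ cells such as dendritic cells. The study compared replicates 1 to 3 of the RXR-deficient mAMs, and the groups below hold the same 10 libraries (n = 4, 3 and 3), with replicate 4 given beside them. No control ImmAMs were analysed here, so in RXR-deficient ImmAMs the deletion and the immature state cannot be told apart.

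Long-chain fatty acids enter mitochondria as carnitine esters, made by Cpt1a at the outer membrane, carried inward by Slc25a20 and turned back to acyl-CoA by Cpt2. Each round of β-oxidation then takes a dehydrogenation, a hydration, another dehydrogenation and a thiolysis, and electrons from the first step pass through Etfa, Etfb and Etfdh to the respiratory chain. Peroxisomes shorten very-long-chain and branched fatty acids with their own oxidases and thiolases, which are imported by receptors such as Pex5. RXRs bind DNA as partners of PPARs and other nuclear receptors, and PPARs are known regulators of many of these genes. AMs take up and break down surfactant lipid.

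Between 16659960 and 37873532 reads were counted per library. The gene-level values of *Rxra* were 310 to 380 CPM (read counts scaled to library size) in control mAMs, 334 to 419 CPM in RXR-deficient mAMs and 283 to 305 CPM in RXR-deficient ImmAMs, and those of *Rxrb* were 51.4 to 72.1, 39.3 to 55.3 and 31.9 to 35.2 CPM. A whole-gene value does not separate reads of a deleted exon from the rest, so these values do not check the labels. All 10 AM markers (such as *Siglecf*, *Marco* and *Chil3*) were in the table, with summed values of 21310 to 27649 CPM, 25207 to 31620 CPM and 23379 to 25181 CPM in the groups in the same order. In ImmAMs this sum was mostly *Chil3*, while *Siglecf* was at 19.3 to 19.7 CPM against 244 to 264 CPM in control mAMs. Of 8 markers of monocytes and interstitial macrophages, 7 were in the table, with sums of 19.7 to 26.8, 31.3 to 52.8 and 533 to 554 CPM, and for neutrophils (5 of 6 markers) the sums were 30.7 to 39.5, 24.6 to 40.6 and 51.7 to 61.9 CPM. The defining markers of eosinophils, alveolar type 2 cells and endothelial cells were not listed in the table. In bulk RNA, fewer cells of a type and less RNA per cell cannot be told apart.

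The levels of the 32 genes spanned a wide range. Per kb of annotated exon, *Ucp2*, an inner membrane carrier, stood highest in control mAMs at 349 ± 24.6 CPM per kb (SD, n = 4), followed by the peroxisomal multifunctional enzyme *Hsd17b4* (122 ± 12.2) and the electron carrier subunit *Etfb* (109 ± 10.6). The ranges of the latter pair overlapped (110 to 134 and 96.0 to 120 CPM per kb), as did those of *Etfa* (57.9 to 68.1) and the thiolase *Acaa2* (51.7 to 58.6). *Cpt1a* stood between these pairs, at 80.3 ± 3.33 CPM per kb. The lowest by this measure were the branched-chain dehydrogenase *Acadsb* (4.09 ± 0.431 CPM per kb) and the complex I assembly factor *Acad9* (4.5 ± 0.206). Their ranges also overlapped (3.55 to 4.61 and 4.31 to 4.77). The length counts every annotated exon of a gene, so a gene with much annotated exon ranks lower. In CPM alone the lowest control means were *Decr2* (17.4), *Decr1* (22.8) and *Hsd17b10* (24.2), with *Acadsb* at 29.3 and *Acad9* at 36.9. Per kb, *Ucp2*, *Hsd17b4* and *Etfb* also led in RXR-deficient mAMs, in the same order. In ImmAMs *Ucp2* still led, at 227 ± 9.50 CPM per kb, while *Hsd17b4* (38.0 ± 2.77) and *Etfb* (37.9 ± 5.93) did not differ beyond their spread. Every member had at least 260 reads in each of these libraries.

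**Figure D1:**
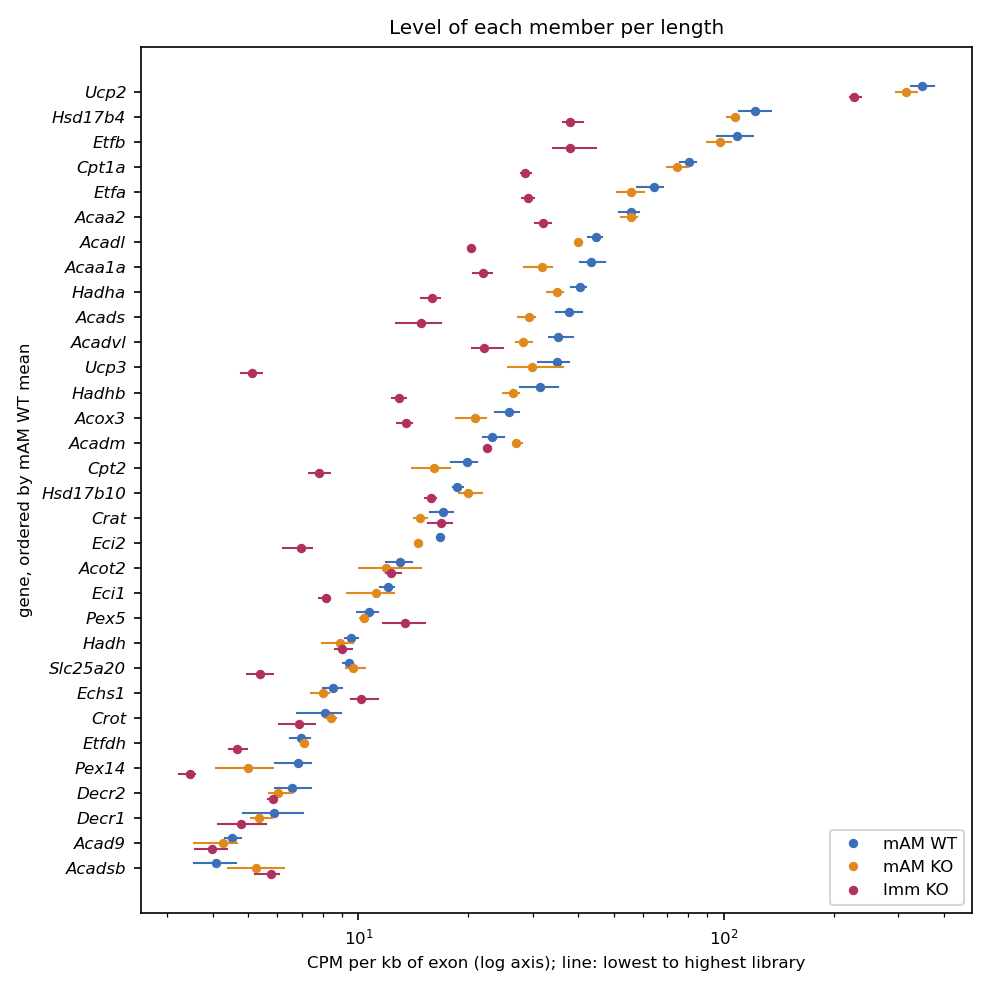
Level of each of the 32 genes on a log axis in CPM per kb of exon, with points for the group means, lines from the lowest to the highest library of a group (n = 4, 3 and 3) and the genes ordered by their mean in control mAMs (mAM WT). *Ucp2* stands highest in all 3 groups, and *Ucp3* shows the widest gap between ImmAMs (Imm KO) and control mAMs. Lengths count every annotated exon of a gene.

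The comparison of RXR-deficient with control mAMs asks how these genes differed between the genotypes in mature cells. The controls carried no Cre, so the deletion and Cre itself cannot be told apart. The peroxisomal thiolase *Acaa1a* and the branched-chain acyl-CoA oxidase *Acox3* fell, and in the main fit no member was called higher. In limma over 12889 genes, 2 of the 32 members were called (p-adj under 0.05), both lower, which is 6.25% of them against 4.84% of all genes in either direction (2.25% higher and 2.59% lower). This share is close to the background. The median log2 fold change was −0.14 over the 32 members and −0.00188 over all genes, and 25 members had a negative sign and 7 a positive one. Libraries of the groups did not overlap for 12 members, 11 lower (34.4% of the members, where 11.2% of all genes were lower without overlap) and 1 higher (3.13%, against 8.92% of all genes).

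**Figure D2:**
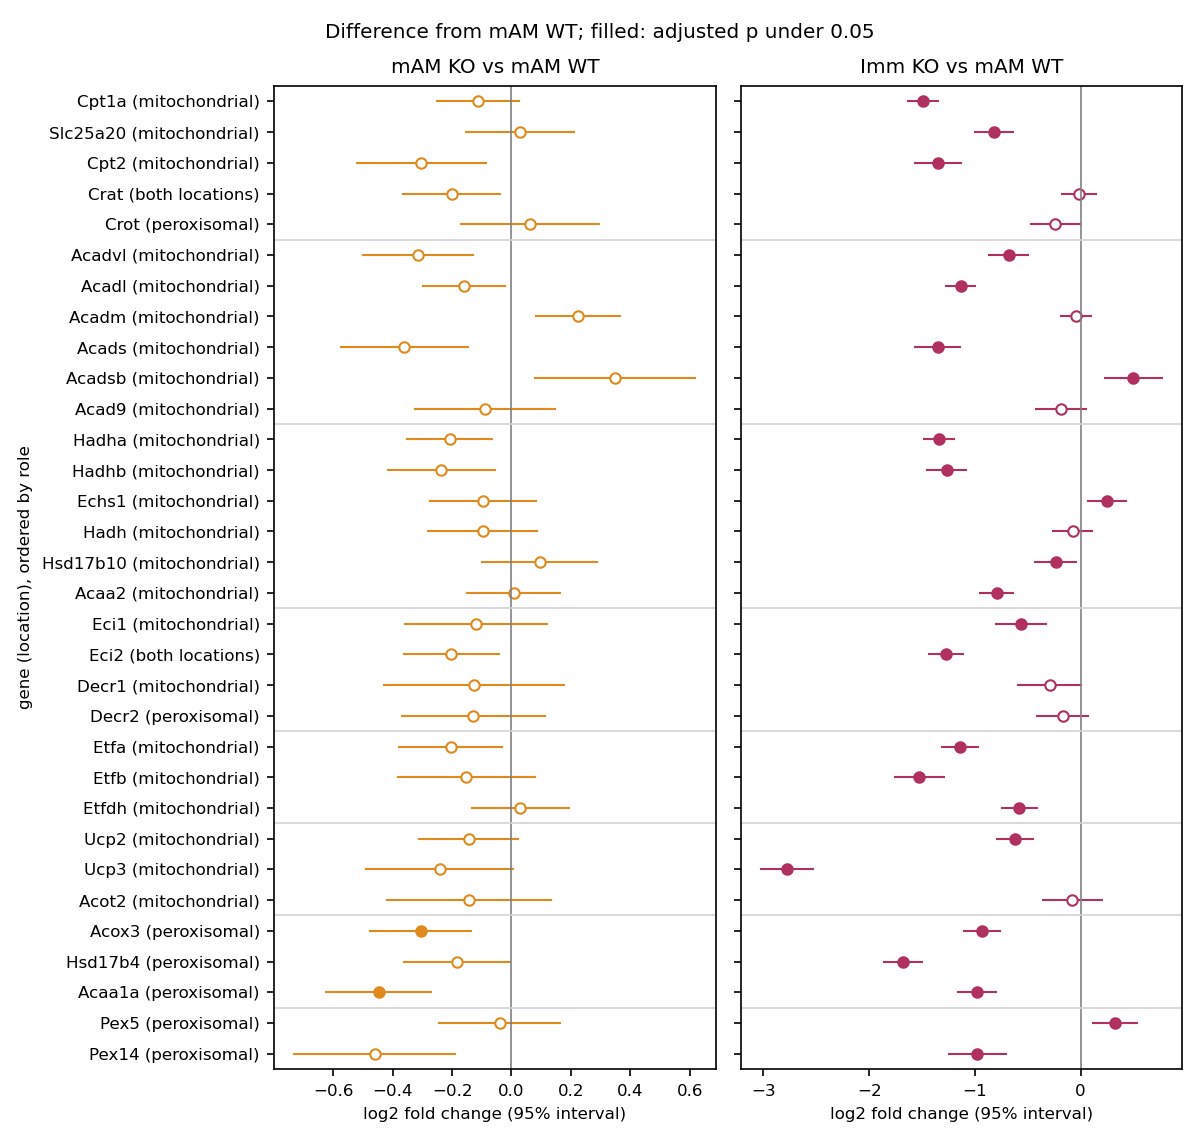
Log2 fold change with its 95% interval for each member against control mAMs, on the left for RXR-deficient mAMs and on the right for RXR-deficient ImmAMs, on x axes of different range. Filled points were called at p-adj under 0.05, and genes are ordered by role. On the left only *Acaa1a* and *Acox3* are filled, and on the right 24 of 32 points are.

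Among the 7 peroxisomal members, *Acaa1a* was at 178, 196, 181 and 209 CPM in control mAMs and at 146, 150 and 125 CPM in RXR-deficient mAMs. All 3 RXR-deficient libraries lay below the lowest control (log2 fold change −0.45, SE 0.082, p-adj 0.0124). *Acox3* was at 299, 273, 299 and 316 CPM against 258, 252 and 213 CPM, again without overlap (−0.30, SE 0.079, p-adj 0.0461). Both are enzymes of the peroxisomal matrix. *Pex14*, the docking factor for the import receptor, was at 37.2, 41.0, 46.4 and 46.5 CPM against 31.6, 36.6 and 25.6 CPM. Its log2 fold change of −0.46 (SE 0.125) missed the threshold at p-adj 0.0531. It was called lower in DESeq2 (p-adj 0.0145), and by limma with a filter at 5 CPM (0.0450) or *Xist* as a covariate (0.0222). The same held without control replicate 1 (0.0343) or without RXR-deficient replicate 2 (0.0175). For the import receptor itself, *Pex5*, the difference was −0.04 with a 95% interval of −0.24 to 0.16. *Hsd17b4* (log2 fold change −0.18, p-adj 0.197), the octanoyltransferase *Crot* (0.06, p-adj 0.766) and the reductase *Decr2* (−0.13, p-adj 0.513) were not called. The median over the peroxisomal members was −0.18.

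The calls of the peroxisomal pair depended on single libraries and on the fit. *Acaa1a* was at p-adj 0.0587 without RXR-deficient mAM replicate 3 and at 0.0600 with replicate 4 included, where its value was 176 CPM. *Acox3* passed only narrowly, and its p-adj lay between 0.0541 and 0.171 under the 15 alternatives that lost the call, among them leaving out any 1 of 9 libraries. About 10.9% of the 60-base windows of *Acaa1a* transcripts also occur in *Acaa1b*, a near-identical thiolase gene beside which its reads had to be divided by the authors' quantification.

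Of the 23 mitochondrial members, 0 were called by limma, with 9 at an unadjusted p under 0.05, where 23.6% of all genes were. edgeR also called 0 of them, with 566 of 12889 genes called in all, and DESeq2 called 4, with 1368 genes called in all. The median log2 fold change was −0.13. In the main fit limma called none of the 6 acyl-CoA dehydrogenases, which differ in the chain length they prefer. DESeq2 called *Acads* (p-adj 0.0101) and *Acadvl* (0.0154) lower and *Acadm* (0.0250) higher. With a filter at 5 CPM limma called *Acads* (p-adj 0.0472) and *Acadvl* (0.0480) lower. *Acads*, for short chains, was at 78.6, 87.8, 82.6 and 92.8 CPM in control mAMs and 68.2, 69.2 and 62.1 CPM in RXR-deficient mAMs (log2 fold change −0.36, SE 0.098, p-adj 0.0550). *Acadvl*, for very long chains, gave −0.31 (SE 0.086, p-adj 0.0551), and *Acadl*, for long chains, gave −0.16 (p-adj 0.148). *Acadm*, for medium chains, was at 90.4, 97.9, 85.5 and 88.8 CPM against 105, 109 and 103 CPM. All 3 RXR-deficient libraries lay above every control, but the difference of 0.22 (SE 0.065) missed the threshold in limma at p-adj 0.0651. *Acadsb* (0.35, p-adj 0.114) overlapped between the groups, and limma called it higher without RXR-deficient replicate 2 (p-adj 0.0473). The read ratio of *Acadm* to *Acadl* within a library does not change with scaling between libraries. It was 1.01 ± 0.0645 in control mAMs, 1.32 ± 0.0677 in RXR-deficient mAMs and 2.15 ± 0.0436 in ImmAMs, without overlap between the groups. In RXR-deficient mAMs *Acadm* lay above and *Acadl* below every control library, so the separation of the ratio there follows from those values. The ratio was not tested.

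*Hadha* and *Hadhb* encode the subunits of the trifunctional protein, which carries out the last steps of a round on long chains. *Hadha* was at 351, 366, 356 and 333 CPM in control mAMs and 311, 317 and 286 CPM in RXR-deficient mAMs (−0.21, p-adj 0.0838), and *Hadhb* gave −0.24 (p-adj 0.111). Neither pair of groups overlapped, and limma called neither difference, while DESeq2 called *Hadha* lower (p-adj 0.0379). In the shuttle, *Cpt2* gave −0.30 (p-adj 0.0942), *Cpt1a* −0.11 (p-adj 0.309) and *Slc25a20* 0.03 (p-adj 0.871). The electron carriers *Etfa*, *Etfb* and *Etfdh* stood at −0.20, −0.15 and 0.03, with p-adj of 0.144, 0.410 and 0.851. For *Acaa2*, the thiolase of medium chains, the difference was 0.01 with a 95% interval of −0.15 to 0.16. The carrier *Ucp3* was at 97.2 to 118 CPM in control mAMs and 80.4 to 114 CPM in RXR-deficient mAMs. Its difference of −0.24 was not called in the main fit. Without RXR-deficient replicate 2 limma called *Ucp3* lower (−0.39, p-adj 0.0363).

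The library left out by the study, RXR-deficient mAM replicate 4, lay within the control range for 4 of the 11 members that were lower without overlap. These were *Cpt2* (43.6 CPM), *Crat* (95.2), *Acadvl* (103) and *Acads* (86.1). With it, 7 members stayed lower without overlap, namely *Acadl*, *Hadha*, *Hadhb*, *Eci2*, *Acox3*, *Acaa1a* and *Pex14*, and *Acadm* (110 CPM in replicate 4) stayed higher. Over all genes, 4.16% were lower and 3.73% higher without overlap when this library was included. In the fit of all 11 libraries, limma called 0 members, with 13 at an unadjusted p under 0.05, where 14.8% of all genes were. It called 337 genes in all, against 624 without that library.

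**Figure D3:**
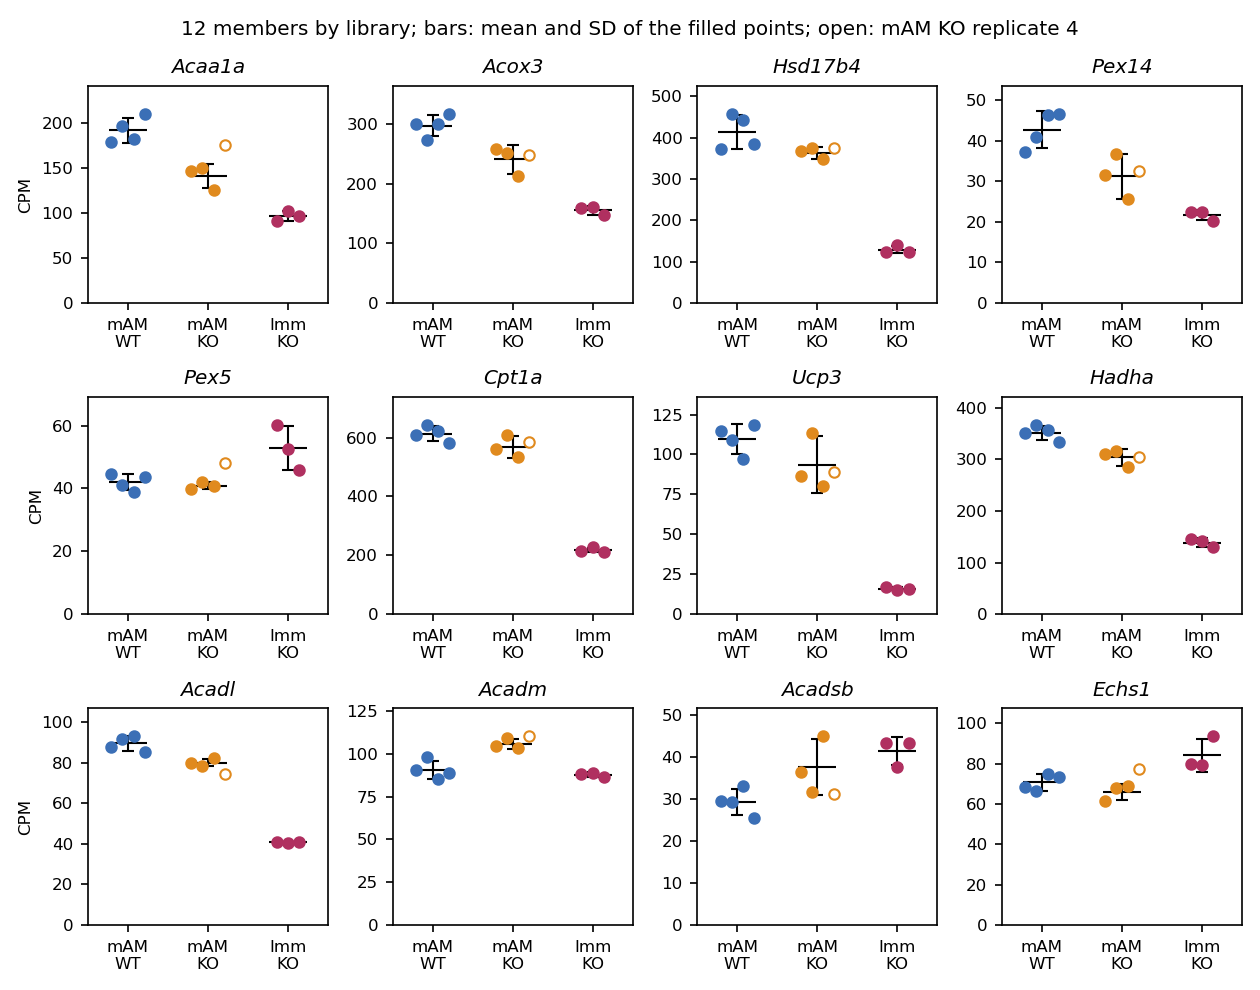
CPM of 12 members in each library, with bars for the mean and SD of the filled points and each y axis starting at 0. The open point is RXR-deficient mAM replicate 4, which was not part of the groups. *Acaa1a* and *Acox3* step down from control mAMs (mAM WT) over RXR-deficient mAMs (mAM KO) to ImmAMs (Imm KO), as do the values of *Pex14*, whose first step was not called (p-adj 0.0531), while *Cpt1a*, *Ucp3* and *Hadha* drop mainly in ImmAMs.

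RXR-deficient ImmAMs differed far more from control mAMs. The carnitine shuttle, the trifunctional protein, the electron transfer flavoprotein and 3 of 5 peroxisomal enzymes fell, while *Acadsb*, *Pex5* and *Echs1* rose. Limma called 24 of 32 members, 21 lower and 3 higher, in a comparison in which 48.1% of all genes were called (22.8% higher and 25.3% lower). As shares of the members, 65.6% were lower and 9.38% higher. The median log2 fold change was −0.74 over the members and −0.00254 over all genes. Sums of monocyte and interstitial macrophage markers were 533 to 554 CPM in these libraries against 19.7 to 26.8 CPM, and their part in the result was not tested.

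**Figure D4:**
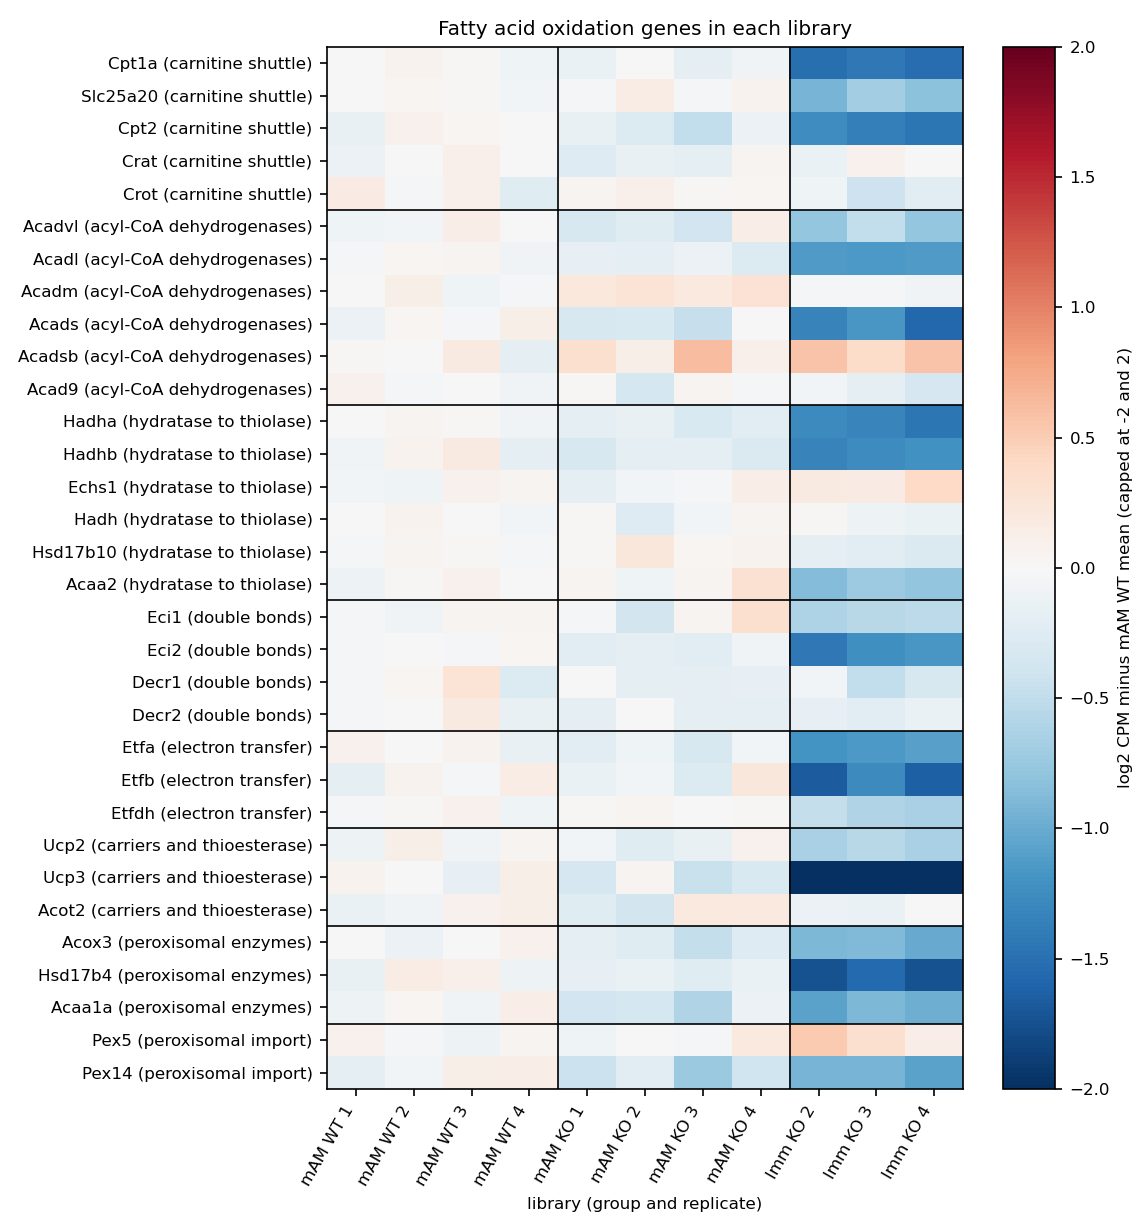
Log2 CPM of each member (rows, by role) in each of the 11 libraries (columns), as the difference from the mean of control mAMs (mAM WT), with the colour scale capped at −2 and 2. The 3 ImmAM columns (Imm KO) are blue for most rows, the darkest being *Ucp3* (log2 fold change −2.78), while rows such as *Crat*, *Acadm* and *Hadh* stay pale.

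In the shuttle, *Cpt1a* was at 610, 642, 622 and 581 CPM in control mAMs and at 215, 227 and 212 CPM in ImmAMs. *Cpt1a* fell by 1.49 on the log2 scale (SE 0.064, p-adj 1.49e-09), with all 3 ImmAM libraries far below the controls. *Cpt2* fell by 1.35 (47.4 ± 3.22 to 18.6 ± 1.25 CPM, p-adj 1.98e-07) and *Slc25a20* by 0.82 (45.7 ± 1.27 to 26.0 ± 2.15 CPM, p-adj 3.86e-06). All 3 steps of mitochondrial entry were lower. The transferases of short and medium acyl groups were not called. *Crat*, the carnitine acetyltransferase, was at 91.6 ± 5.39 and 90.7 ± 6.89 CPM, a difference of −0.01 with a 95% interval of −0.18 to 0.15, and *Crot* gave −0.24 (p-adj 0.0854).

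*Ucp3*, a mitochondrial carrier linked to fatty acid handling, showed the largest fall of the 32 members. It was at 115, 109, 97.2 and 118 CPM in control mAMs and at 17.0, 15.0 and 16.0 CPM in ImmAMs (log2 fold change −2.78, SE 0.114, p-adj 1.05e-09). *Ucp2* fell by 0.62 (2438 ± 172 to 1584 ± 66.4 CPM, p-adj 2.18e-05). Both genes lie on the plus strand of chromosome 7, *Ucp3* at chr7:100472990-100486432 and *Ucp2* at chr7:100493337-100502020 (GRCm38), with 6904 bases between them. The reads of *Ucp3* were 4.51 ± 0.430% of those of *Ucp2* in control mAMs, 4.28 ± 1.06% in RXR-deficient mAMs and 1.01 ± 0.102% in ImmAMs.

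Of the 6 acyl-CoA dehydrogenases, *Acads*, *Acadl* and *Acadvl* fell and *Acadsb* rose. *Acads* fell by 1.35 (85.4 ± 6.16 to 33.6 ± 4.71 CPM, p-adj 1.66e-07), *Acadl* by 1.13 (89.6 ± 3.59 to 40.8 ± 0.314 CPM, p-adj 1.54e-08) and *Acadvl* by 0.68 (p-adj 2.68e-05). *Acadm* was at 88.5, 88.7 and 86.4 CPM in ImmAMs, within the control range of 85.5 to 97.9 CPM. Its difference was −0.04 with a 95% interval of −0.18 to 0.10. *Acadsb* was at 29.5, 29.2, 33.1 and 25.5 CPM in control mAMs and 43.3, 37.5 and 43.4 CPM in ImmAMs, a rise by 0.50 (SE 0.125, p-adj 0.00509). *Acad9* was not called (−0.19, p-adj 0.174). About 42.9% of the exon bases of *Acadvl* overlap exons of *Dvl2* on the other strand. The library kit of the study keeps the strand, but whether the quantification used it is not given in the sources used here.

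For the later steps, *Hadha* was at 146, 141 and 129 CPM in ImmAMs and *Hadhb* at 81.6, 85.7 and 88.8 CPM. They fell by 1.34 (p-adj 4.55e-09) and 1.27 (p-adj 6.07e-08), and their read ratio was 1.71 ± 0.131 in control mAMs, 1.75 ± 0.159 in RXR-deficient mAMs and 1.63 ± 0.167 in ImmAMs, with overlap between all groups. *Acaa2* fell by 0.79 (p-adj 1.38e-06). The hydratase *Echs1* was at 68.1, 66.3, 74.7 and 73.4 CPM in control mAMs and 79.7, 79.2 and 93.5 CPM in ImmAMs, a rise by 0.25 (SE 0.082, p-adj 0.0234) that was at p-adj 0.133 without ImmAM replicate 4, 0.0671 without control replicate 2 and 0.0523 without control replicate 1. The dehydrogenase *Hadh* gave −0.07 with a 95% interval of −0.26 to 0.11. *Hsd17b10* was called lower at −0.24 (p-adj 0.0452), a call lost in 14 of 22 alternatives at p-adj of 0.0513 to 0.130. These were 8 of the 10 that left out a library, median-ratio scaling, no TMM factor, edgeR, DESeq2, the replicate block and *Xist* as a covariate.

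*Hadha* and *Hadhb* lie head to head on chromosome 5. Their outermost starts in GENCODE are at positions 30155162 on the minus strand and 30155248 on the plus strand (GRCm38), 86 bases apart. Their RefSeq promoter windows (250 bases before to 50 after a start site, build GRCm38.p6) share 228 bases. These windows use other start sites, so the distance of 86 bases does not apply to them. The *Hadha* window is chr5:30154931-30155230 on the minus strand. The *Hadhb* window is shown 5′ to 3′, with the shared stretch in capitals. Both genes fell in ImmAMs, as did most members, and a part of the shared stretch in this was not tested.
Hadhb, chr5:30155003-30155302, plus strand: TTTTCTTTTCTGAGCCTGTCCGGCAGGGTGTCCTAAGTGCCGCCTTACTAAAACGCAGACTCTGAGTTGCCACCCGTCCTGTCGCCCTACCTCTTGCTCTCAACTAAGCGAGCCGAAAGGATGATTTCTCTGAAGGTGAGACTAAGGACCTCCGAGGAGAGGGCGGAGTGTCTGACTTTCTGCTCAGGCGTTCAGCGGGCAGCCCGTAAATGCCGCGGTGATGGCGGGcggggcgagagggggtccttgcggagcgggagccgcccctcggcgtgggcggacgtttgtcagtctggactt

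*Etfa* and *Etfb*, the subunits of the electron transfer flavoprotein, fell by 1.14 (118 ± 8.62 to 53.3 ± 1.96 CPM, p-adj 1.16e-07) and 1.53 (127 ± 12.3 to 44.1 ± 6.90 CPM, p-adj 1.13e-07), and its oxidoreductase *Etfdh* fell by 0.58 (p-adj 3.51e-05). For *Etfb*, 42.1% of the 60-base transcript windows are shared with the gene model *Gm45233*, so its level is less certain than the others. Among the enzymes for unsaturated chains, the isomerases *Eci2* (−1.27, p-adj 1.99e-08) and *Eci1* (−0.56, p-adj 0.000921) fell, while the dienoyl-CoA reductases *Decr1* (−0.29, p-adj 0.10) and *Decr2* (−0.17, p-adj 0.225) were not called. The thioesterase *Acot2*, which shares 22.8% of its windows with *Acot1*, gave −0.08 with a 95% interval of −0.35 to 0.20.

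Of the 5 peroxisomal enzymes, 3 fell in ImmAMs, and *Crot* and *Decr2* were not called. *Hsd17b4* was at 374, 457, 444 and 385 CPM in control mAMs and at 124, 140 and 124 CPM in ImmAMs (log2 fold change −1.68, SE 0.082, p-adj 4.39e-09). *Acaa1a* fell by 0.98 (191 ± 14.2 to 96.7 ± 5.65 CPM, p-adj 6.02e-07) and *Acox3* by 0.93 (297 ± 17.9 to 155 ± 7.51 CPM, p-adj 6.51e-07). The import factors parted. *Pex14* fell by 0.98 (42.8 ± 4.54 to 21.7 ± 1.28 CPM, p-adj 2.97e-05), whereas *Pex5* was at 44.7, 41.0, 38.9 and 43.6 CPM in control mAMs and 60.1, 52.6 and 46.0 CPM in ImmAMs, a rise by 0.33 (SE 0.094, p-adj 0.0123). Without ImmAM replicate 2 the rise of *Pex5* was at p-adj 0.0781. The read ratio of *Pex5* to *Pex14* was 0.995 ± 0.153, 1.33 ± 0.237 and 2.44 ± 0.213 in control mAMs, RXR-deficient mAMs and ImmAMs. About 28.3% of the exon bases of *Pex14* overlap those of *Gm17029* on the other strand.

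The promoter windows of 27 of the 32 genes (29 windows, RefSeq, GRCm38.p6, 300 bases each) were searched on both strands for the nuclear receptor hexamer AGGTCA, for AGGTCANAGGTCA with at most 2 mismatches outside the N, the direct repeat bound by PPAR with RXR, and for TCAAGGTCA, an extended form of the hexamer that contains it. The hexamer was in 17.2% of the members' windows, those of *Acadm*, *Acadvl*, *Cpt1a*, *Echs1* and *Ucp3*, and in 16.3% of all 32851 windows. The direct repeat was in 4 windows (13.8%), those of *Ucp3*, *Etfa*, *Slc25a20* and *Echs1*, and in 3.86% of all windows. The extended form was in 0 windows of members and 0.423% of all. The members' windows had a median GC content of 60.7%, against 52.7% for all windows. The 4 windows with the direct repeat and that of *Cpt1a* are shown 5′ to 3′ on the gene's strand because the first 3 of these genes and *Cpt1a* fell in ImmAMs while *Echs1* rose. *Acadm*, which holds the same hexamer as *Cpt1a*, was not called (−0.04). Capitals mark the matches. In *Ucp3* the repeat begins 51 bases before the start site and ends in a full hexamer, with another hexamer 149 bases before the start site. In *Echs1* the repeat begins 83 bases before the start site. The repeat of *Etfa* begins 77 bases and the hexamer of *Cpt1a* 94 bases before the start site, both on the other strand. In *Slc25a20* the repeat begins at base 7 after the start site. A match describes these letters only.
Ucp3, chr7:100472741-100473040, plus strand: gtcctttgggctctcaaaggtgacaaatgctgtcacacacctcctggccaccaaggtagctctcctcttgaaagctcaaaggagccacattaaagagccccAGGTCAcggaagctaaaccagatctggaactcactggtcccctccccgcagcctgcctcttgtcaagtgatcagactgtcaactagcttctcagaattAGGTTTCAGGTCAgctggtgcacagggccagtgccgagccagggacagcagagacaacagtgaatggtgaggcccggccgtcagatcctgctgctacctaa
Cpt1a, chr19:3323051-3323350, plus strand: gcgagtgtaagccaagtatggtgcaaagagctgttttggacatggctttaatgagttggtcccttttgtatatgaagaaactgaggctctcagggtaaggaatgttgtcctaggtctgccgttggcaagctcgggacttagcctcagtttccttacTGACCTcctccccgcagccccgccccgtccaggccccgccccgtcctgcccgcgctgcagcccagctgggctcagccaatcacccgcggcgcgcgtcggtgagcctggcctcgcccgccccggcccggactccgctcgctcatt
Etfa, chr9:55512194-55512493, minus strand: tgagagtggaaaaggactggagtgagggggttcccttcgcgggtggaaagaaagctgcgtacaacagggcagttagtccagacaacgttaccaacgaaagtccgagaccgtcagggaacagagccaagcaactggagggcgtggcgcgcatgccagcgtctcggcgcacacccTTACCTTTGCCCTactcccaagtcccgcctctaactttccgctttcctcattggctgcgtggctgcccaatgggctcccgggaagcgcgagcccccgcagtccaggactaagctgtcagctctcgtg
Slc25a20, chr9:108661886-108662185, plus strand: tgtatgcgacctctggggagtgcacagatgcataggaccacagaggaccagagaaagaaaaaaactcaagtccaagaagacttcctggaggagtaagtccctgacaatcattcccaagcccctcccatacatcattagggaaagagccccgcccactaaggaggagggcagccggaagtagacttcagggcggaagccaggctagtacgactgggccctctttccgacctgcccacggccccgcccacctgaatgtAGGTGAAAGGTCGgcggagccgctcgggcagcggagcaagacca
Echs1, chr7:140116372-140116671, minus strand: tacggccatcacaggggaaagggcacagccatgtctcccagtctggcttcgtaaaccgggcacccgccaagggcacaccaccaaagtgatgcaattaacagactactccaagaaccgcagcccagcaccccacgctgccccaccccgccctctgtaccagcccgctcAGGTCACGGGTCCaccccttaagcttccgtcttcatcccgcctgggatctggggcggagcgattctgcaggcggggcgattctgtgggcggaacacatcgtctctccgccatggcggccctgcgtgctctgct

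Mitochondrial and peroxisomal members were then set side by side. In RXR-deficient mAMs the median log2 fold changes were −0.13 and −0.18, with 0 of 23 and 2 of 7 members called, against 4.84% of all genes. These counts moved with the fit, to 4 and 3 in DESeq2, which called 1368 of 12889 genes, and 0 and 1 in edgeR, which called 566. With all 11 libraries limma called 0 of either, with 8 and 4 at an unadjusted p under 0.05, where 14.8% of all genes were. In ImmAMs against control mAMs the medians were −0.68 and −0.93, with 18 of 23 and 5 of 7 members called. Of these, 2 and 1 were higher, and 48.1% of all genes were called in that comparison. Summed over members, mitochondrial reads were 4839 ± 198 CPM in control mAMs, 4394 ± 118 CPM in RXR-deficient mAMs and 2776 ± 85.7 CPM in ImmAMs, and peroxisomal reads 1049 ± 34.7, 879 ± 58.2 and 509 ± 19.8 CPM. The peroxisomal share of both sums was 17.8 ± 0.446% (17.3 to 18.4%), 16.7 ± 0.840% (15.8 to 17.5%) and 15.5 ± 0.288% (15.2 to 15.8%). Control and RXR-deficient mAMs overlapped in this share, and ImmAMs lay below both. Against RXR-deficient mAMs the gap was narrow, from 15.79% in the highest ImmAM library to 15.84% in the lowest RXR-deficient mAM library.

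This order depended on where *Crat* and *Eci2* were counted and on a pair of abundant genes. With *Crat* and *Eci2* counted as peroxisomal, ImmAMs (18.6 to 18.8%) lay within the range of RXR-deficient mAMs (18.4 to 20.0%) and below that of control mAMs (19.7 to 21.0%). Without *Ucp2*, which takes 50.4 ± 1.80% of the mitochondrial sum in control mAMs, the share was 30.4 ± 0.568%, 28.6 ± 0.852% and 29.9 ± 0.481%. Here ImmAMs overlapped with control mAMs and, narrowly, with RXR-deficient mAMs (29.37% in the lowest ImmAM library, 29.38% in the highest RXR-deficient mAM library). Without *Ucp2* and *Hsd17b4* it was 20.9 ± 1.05%, 19.0 ± 0.939% and 24.2 ± 0.494%, with ImmAMs above both other groups. The difference between the locations was not tested.

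**Figure D5:**
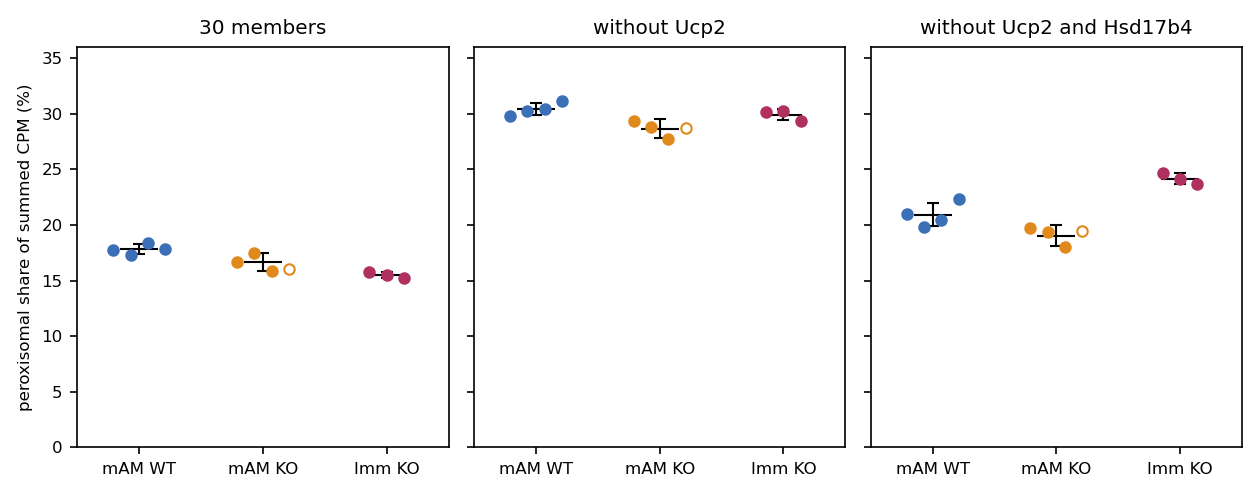
Peroxisomal share of the summed CPM of mitochondrial and peroxisomal members in each library, in percent, for all 30 such members, without *Ucp2*, and without *Ucp2* and *Hsd17b4*. Bars give the mean and SD of the filled points, and the open point is RXR-deficient mAM replicate 4. ImmAMs (Imm KO) have the lowest share on the left (15.5%) and the highest on the right (24.2%).

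RXR-deficient ImmAMs and mAMs share the genotype and differ in maturity. Here 24 of 32 members were called, 22 lower and 2 higher (*Echs1* 0.34, p-adj 0.00740, and *Pex5* 0.36, p-adj 0.0120), against 37.9% of all genes (17.7% higher and 20.2% lower). Without ImmAM replicate 2 the rise of *Pex5* in this comparison was at p-adj 0.0628. The median log2 fold change over the members was −0.53. *Ucp3* fell by 2.54 (93.6 ± 17.6 to 16.0 ± 1.03 CPM, p-adj 8.50e-09), *Hsd17b4* fell by 1.49 (p-adj 4.58e-08) and *Cpt1a* fell by 1.38 (568 ± 38.3 to 218 ± 7.87 CPM, p-adj 1.06e-08). *Acadm* was lower in this comparison (106 ± 3.12 to 87.9 ± 1.27 CPM, −0.27, p-adj 0.00841). *Acaa1a* fell by 0.53 (p-adj 0.000356) and *Acox3* by 0.63 (p-adj 6.71e-05). *Crot* (p-adj 0.0562) and *Crat* (0.19, p-adj 0.0839) were not called. This comparison shares its libraries with the others, so it is no independent support for them.

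Other genes of the pathway, taken from fixed lists, were counted in the same way. In RXR-deficient mAMs, 0 of 12 further mitochondrial genes, 1 of 18 further peroxisomal lipid genes and 2 of 14 further peroxins were called, all 3 lower, where 4.84% of all genes were called. *Acaa1b*, the paralog of *Acaa1a*, fell by 0.73 (280 ± 23.8 to 174 ± 52.3 CPM, p-adj 0.0292). As 10.9% of the *Acaa1a* windows also occur in *Acaa1b*, the values of this pair may not be independent. The peroxins *Pex11a* and *Pex16*, which act in peroxisome division and membrane assembly, fell by 0.68 (p-adj 0.00770) and 0.57 (p-adj 0.0303). Of 6 regulators, *Esrrg* rose by 2.0 from a level of 1.14 ± 0.614 CPM (p-adj 0.0396). Of 14 genes of mitochondrial content outside oxidation, 2 were lower, *Tomm40* (−0.46, p-adj 0.0175) and *Phb2* (−0.30, p-adj 0.0491).

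In ImmAMs, for which 25.3% of all genes were lower and 22.8% higher against control mAMs, the same lists were counted. *Acaa1b* went from 280 ± 23.8 to 6.40 ± 0.182 CPM (−5.45, p-adj 7.99e-11). Here too the values of *Acaa1b* and *Acaa1a* may not be independent. *Ehhadh*, the inducible peroxisomal bifunctional enzyme, went from 29.1 ± 2.42 to 7.85 ± 0.548 CPM (−1.89, p-adj 1.48e-07). *Pdk4*, a kinase that turns glucose oxidation down, fell by 4.29 (p-adj 3.80e-09), *Pex11a* fell by 2.45 (p-adj 2.50e-09) and *Pex16* fell by 1.91 (p-adj 8.73e-08). Of the further mitochondrial oxidation genes 5 of 12 were lower and 1 higher, of the further peroxisomal lipid genes 11 of 18 lower and 2 higher, and of the further peroxins 6 of 14 lower and 1 higher. Of the regulators 2 of 6 were lower and 1 higher. Apart from the peroxisomal lipid genes and those of mitochondrial content below, these lists were called at 50%, close to the 48.1% of all genes. For mitochondrial content 8 of 14 were lower, with a median of −0.24 against −0.68 for the 23 mitochondrial members.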

How the data were processed

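RNA of sorted AMs was sequenced from strand-specific libraries with single-end reads of 60 bases. The authors trimmed the reads with Cutadapt (reads under 30 bases discarded), quantified them against the GRCm38 transcriptome with RSEM (1.3.1 per the submitters' processing notes), applied TMM scaling with limma, and dropped genes that did not reach 1 CPM in 3 samples. The deposited values are CPM on TMM-scaled library sizes. Dividing them by the step of their library gave whole reads plus 0.5 within 0.01 for 100% of the values, so that edgeR and DESeq2 could be run on the recovered reads as alternatives.

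Log2 of the deposited values, with no further pseudocount, was fitted for 10 libraries in 1 model in limma 3.58.1 (R 4.3.3, trended eBayes). The 12889 genes that reached 1 CPM in 3 of these libraries were tested two-sided, and p-adj is the Benjamini-Hochberg value over all of them. The study counts these replicates as mice, while RNA of both sexes was found in every library, so p-values measure the spread between libraries, whatever each one pooled. Depth was 16659960 to 37873532 reads per library. Positions and exon lengths are from GENCODE vM21 (GRCm38), promoters from RefSeq (GRCm38.p6).

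Named genes are all 32 members and, from the fixed lists of the pathway, the 5 called genes with the largest change in each comparison with control mAMs, plus *Phb2*, the only other one called in RXR-deficient mAMs. The members and lists were chosen with earlier results of these data known. The labels number the replicates in each group, but same-numbered libraries did not deviate together (8 pairs, correlations −0.13 to 0.059). Alternatives were all 11 libraries, a pseudocount of 0.5, a filter at 5 CPM or none, scaling by median ratios or without the TMM factor, edgeR 4.0.16, DESeq2 1.42.0, no variance trend, only the 2 groups compared, a replicate block, *Xist* as a covariate and each library left out. Shares were also taken without *Ucp2*, an alternative chosen after seeing the data.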

Additional observations from a re-analysis of the deposited data

Results flagged for a closer look

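In groups of 4 libraries, the highest or lowest value of a member was compared with its gap to the next one (Dixon's ratio). Of 64 such groups, 3 stood out, all among the 4 libraries of RXR-deficient mAMs, where chance gives about 1 in 20 groups. *Decr1* was at 22.5 CPM in replicate 1, against 19.7 to 20.2 CPM in the other libraries. *Decr2* was at 17.4 CPM in replicate 2, against 15.1 to 15.4 CPM. *Etfdh* was at 54.3 CPM in replicate 2, against 52.6 to 52.8 CPM. None of these genes was called in RXR-deficient against control mAMs.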

How the results depend on the processing

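In RXR-deficient against control mAMs the counts moved with the fit. Against 624 genes and 2 members, the counts were 337 and 0 with all 11 libraries, 122 and 0 without the variance trend, 199 and 1 with only the 2 groups compared, 174 and 0 with a replicate block, and 1368 and 7 in DESeq2 (1 higher, 6 lower). The member count was 5 with a filter at 5 CPM, 1 without the TMM factor, 1 in edgeR and 4 with *Xist* as a covariate. Where limma called 0 members, 12 to 14 were at an unadjusted p under 0.05, where 14.8% to 22.2% of all genes were. Leaving out 1 library gave 162 genes and 0 members (without RXR-deficient replicate 3) to 861 genes (without control replicate 1) and 5 members (without RXR-deficient replicate 2). The cause was not tested. Both other comparisons kept counts within 1.5 times, at 22 to 26 members (5027 to 6317 genes) for ImmAMs against control mAMs and 23 to 25 members (3971 to 5278 genes) against RXR-deficient mAMs with 1 library left out. The replicate block also lost the calls of *Echs1* and *Hsd17b10* in both (p-adj 0.0585 and 0.0687, 0.0538 and 0.0512), and no other.

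The order of the groups in the peroxisomal share changed with the members counted. ImmAMs no longer lay apart from RXR-deficient mAMs with *Crat* and *Eci2* counted as peroxisomal or, narrowly, without *Ucp2*. The share of control mAMs, RXR-deficient mAMs and ImmAMs was 20.3%, 19.1% and 18.7% with *Crat* and *Eci2* counted as peroxisomal, 20.9%, 19.0% and 24.2% without *Ucp2* and *Hsd17b4*, and 30.4%, 28.6% and 29.9% without *Ucp2*.

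Signs turned for 11 differences that were not called. In RXR-deficient against control mAMs these were *Pex5* (0.019 with all 11 libraries) and, with 1 library left out, *Acaa2* (−0.026 to 0.053), *Crot* (−0.021 to 0.11), *Etfdh* (−0.0021 to 0.057), *Slc25a20* (−0.028 to 0.058), *Acad9* (−0.16 to 0.037) and *Eci1* (−0.21 to 0.0081). In ImmAMs against control mAMs it was *Crat*, at 0.0018 with median-ratio scaling, 0.0029 in edgeR, 0.0034 in DESeq2, 0.015 with *Xist* and −0.067 to 0.043 with 1 library left out. Against RXR-deficient mAMs these were *Hadh* (−0.016 with all 11 libraries, −0.030 with *Xist*, −0.060 to 0.083 with 1 left out), *Acot2* (−0.021 with all 11 libraries, −0.021 with the block, −0.048 to 0.23 with 1 left out) and *Decr2* (0.014 with *Xist*, −0.078 to 0.023 with 1 left out). Of 704 values of members in each comparison, 658, 676 and 685 kept direction and call. Depth was at least 260 reads for every member, and 3 or 4 libraries a group limit what could be called.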
